A study of Mus musculus with 6 samples.

Results

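The genes described here encode 36 lysosomal proteins, the hydrolases of the lysosomal lumen with a few of their partners and 6 proteins of the lysosomal membrane. They were taken by gene symbol from the retinal gene tables, in which 19401 genes were listed in at least 1 library, and all 36 were present in every library. As a check of the name, the gene ontology column of the files placed 33 of the 36 in a lysosomal component; Ctsl, Lipa and Naglu carried no such entry there, although their products are well-known lysosomal enzymes. Lysosomes are acidified compartments in which hydrolases degrade proteins, lipids, glycans and glycogen delivered by endocytosis, phagocytosis and autophagy. Most of the enzymes reach the compartment with a mannose 6-phosphate tag, and the membrane proteins protect its wall, carry enzymes to it and let ions pass. In the eye this degradation has a daily load, because the retinal pigment epithelium (RPE) engulfs the shed tips of photoreceptor outer segments, and inherited loss of several of these enzymes damages the retina.

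The study asked how efavirenz (EFV), an anti-HIV drug that at a low dose activates the cholesterol 24-hydroxylase CYP46A1, affects the retina of 5XFAD mice. These animals were hemizygous for transgenes of mutant human amyloid precursor protein and presenilin under the neuronal Thy1 promoter, on a B6SJL background without the Pde6b rd1 and Crb1 rd8 alleles. Control and treated animals both carried the transgenes, so no comparison with mice lacking the transgenes was possible. Treated mice received EFV in their drinking water from 3 to 9 months of age. The dose was labelled as 0.08 mg/kg of body weight, and the description of the treatment gives 0.1 mg/kg per day. Control mice received water with the vehicle, Tween 80. Retinas were taken at 9 months, and each of the 3 control and 3 EFV libraries came from a pool of 5 to 6 mice, all male, with 1 retina plus RPE from each. The libraries were named by group and number, and their spread is a spread between pools. The depth, as the sum of rounded expected counts, was even, at 24590278, 23455167 and 24337444 for control libraries 1 to 3 and 24487218, 24360060 and 24160101 for EFV libraries 1 to 3.

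Levels are given as FPKM, fragments scaled to transcript length and library total, which allow genes of different length to be compared. Differences are log2 fold changes of EFV over control from edgeR, with their standard error (SE), tested in a fit over the 15537 genes that had at least 10 counts in at least 3 libraries. All 36 genes passed this filter, the smallest count in any library being 66. The study limits, as used below, are an unadjusted p of 0.05 or less together with a fold change at least 7% above 1 in either direction. In these bulk samples fewer cells of a type and less RNA per cell cannot be told apart. The tissue label was borne out by the 6 rod markers, whose summed level was 24405 ± 414 FPKM in control and 23632 ± 702 FPKM in EFV (SD, n = 3).

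The lysosomal genes were for the most part well expressed and hardly differed between the groups. Their mean levels over all libraries ran from 1.00 FPKM for Manba to 284 FPKM for Psap, with a median of 20.9 FPKM against 7.66 FPKM for all genes tested. The median member stood at the 77.7th percentile of all genes tested, 24 of the 36 lay above the 50th percentile and 10 above the 90th. Summed over the 36 genes, the level was 1305, 1248 and 1306 FPKM in control libraries 1, 2 and 3 and 1263, 1279 and 1310 FPKM in EFV libraries 1, 2 and 3. The ranges of these sums overlapped, with means of 1286 ± 33.0 FPKM in control and 1284 ± 23.9 FPKM in EFV (SD, n = 3). Psap alone made up 22.1% of the sum, and together with Ctsd, Lamp1, Ctsb and Ctsf 53.3%.

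**Figure D1:**
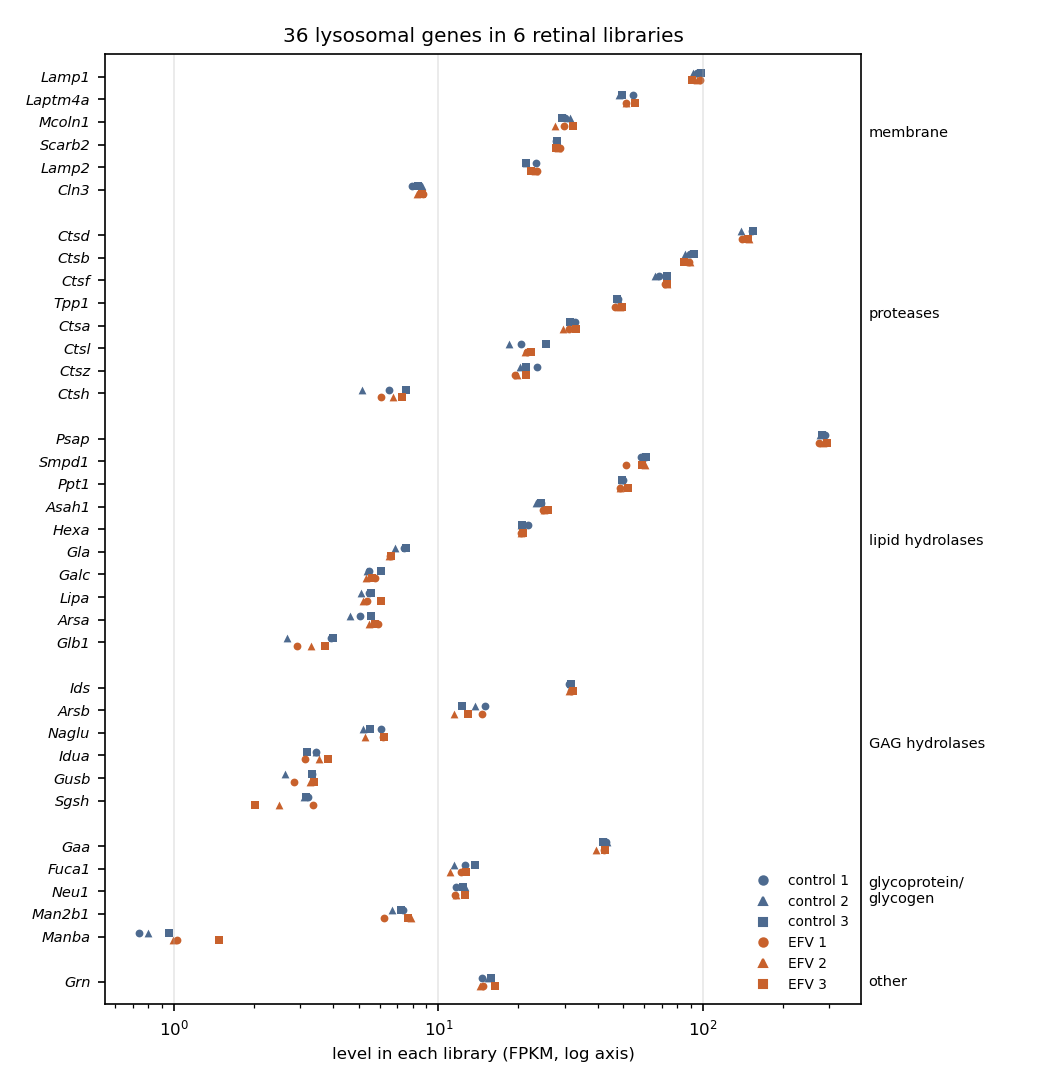
Level of each of the 36 lysosomal genes in each library (FPKM, log axis), grouped by role and ordered by mean level; blue symbols are the 3 control libraries and orange symbols the 3 EFV libraries. Levels differ far more between genes, from 1.00 to 284 FPKM on average, than between the groups of any 1 gene.

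Of the 36 genes, 1 was lower and 1 was higher in EFV-treated mice at the study limits, with p from edgeR. Gla was the lower one, and 2.78% of the members compare with 1.54% of all genes tested that were lower. Manba was the higher one, and 2.78% compare with 1.47% of all genes tested that were higher. The study's own list of differentially expressed genes, based on a Poisson distribution, named neither of these nor any other of the 36. In either direction 3.01% of all genes tested passed, 239 lower and 228 higher, and with scaling by total counts only the split was 159 lower and 288 higher. With the Benjamini-Hochberg (BH) adjustment of edgeR, made over the whole table, 0 members reached an adjusted p of 0.05, and the smallest adjusted p was 0.999. The share of all genes that reached this adjusted limit by edgeR was 0%. At an unadjusted p of 0.05 or less there were 2 members (5.56%) by edgeR, against 3.04% of all genes tested. At the adjusted limit of 0.05 DESeq2 gave 0 members against 0.0709% of all genes, and limma on log2(FPKM + 0.1) gave 0 members against 0% of all genes. A Poisson model, in which counting error is the only error, gave 9 of the 36 members at the adjusted limit, against 13.1% of all genes tested.

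The median log2 fold change of the 36 genes was -0.01, against 0.00 for all genes tested. Fold changes were above 0 for 15 members and below 0 for 21, a split that turned to 21 above and 15 below when libraries were scaled by total counts only. For 29 members (80.6%) the log2 fold change lay within 0.1 of 0, against 70.1% of all genes tested. The 95% confidence interval of the fold change lay within 1.2-fold in both directions for 25 of the 36 genes. The remaining 11 intervals were wider or shifted, so 3 pools per group did not bound those genes so closely. Within the groups the members varied little, with a median SD of 0.069 in log2 CPM (counts scaled to the library total and its TMM factor) against 0.0985 for all genes tested. The members were also more abundant than most genes tested. Neither this SD nor the share within 0.1 of 0 was compared at matched levels.

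**Figure D2:**
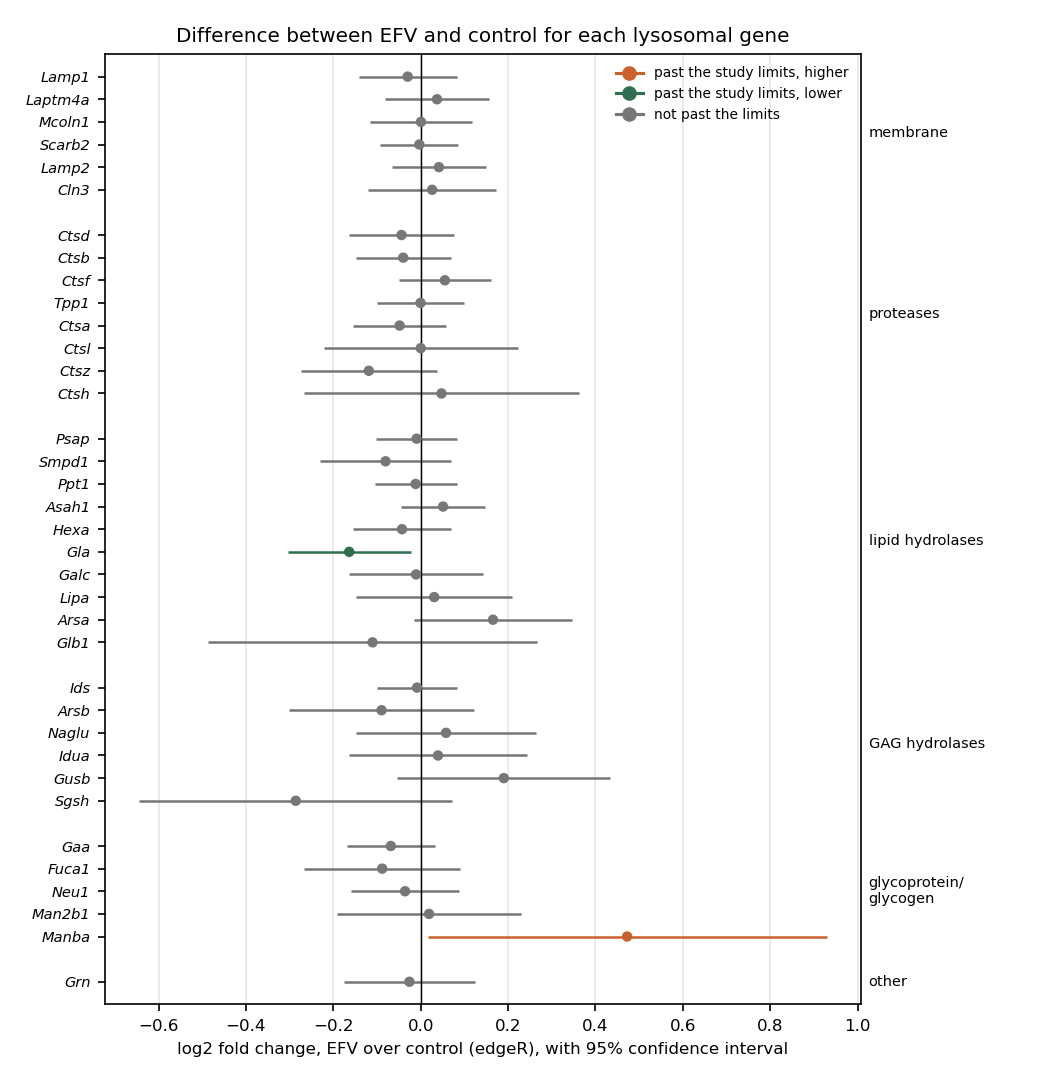
Log2 fold change of EFV over control (edgeR) for each of the 36 lysosomal genes, points with 95% confidence intervals, grouped by role as in the plot of levels. The intervals of Gla (-0.30 to -0.02) and Manba (0.02 to 0.93) are the 2 that do not include 0.

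Many lysosomal genes share an upstream sequence element built on the E-box CACGTG, which is the kind of site bound by the transcription factor TFEB and its relatives. The promoters are shown as a description of the family, since the element is already known from lysosomal genes. RefSeq promoters of GRCm38.p6, from 250 bases before to 50 bases after the annotated start, were found for 33 of the 36 genes and not for Asah1, Ctsb and Ctsh. The 6 bases CACGTG read the same on both strands, and they were present in 13 of the 33 genes (39.4%). The same letters were present in 11.3% of the tested genes that had a promoter, in 8.09% of all 27025 genes in the promoter table and, counting each promoter singly, in 7.15% of its 32851 promoters. The 7 bases TCACGTG, which contain the E-box and were searched on both strands, were present in 11 members (33.3%), in 6.64% of tested genes, in 4.29% of all genes in the table and in 3.77% of its promoters. The 8 bases TCACGTGA, which contain both, were present in 5 members (15.2%), in 2.00% of tested genes, in 1.12% of all genes in the table and in 0.974% of its promoters. Among 47 further lysosomal genes with a promoter, described with the other lysosomal lists, the 6 and the 7 bases were each present in 23.4% and the 8 bases in 17.0%, a share above that of the members.

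Lamp1, which encodes a heavily glycosylated protein of the lysosomal membrane, had 4 E-boxes, beginning at positions -61, -45, -28 and -15 from its start, and 8 promoters in the whole table, this one included, held that many or more. Gla, which encodes alpha-galactosidase A, had a pair of them farther upstream, beginning at -227 and -194. Sgsh, which encodes the heparan sulfatase, had 1, beginning at -29. The stretches around them, from chr8:13159074-13159160 (plus strand) for Lamp1, chrX:134601168-134601255 (minus strand) for Gla and chr11:119355511-119355565 (minus strand) for Sgsh, all upstream of the start, are written 5′ to 3′ with each E-box in capitals.
Lamp1: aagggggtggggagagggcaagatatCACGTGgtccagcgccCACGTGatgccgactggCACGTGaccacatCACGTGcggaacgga
Gla: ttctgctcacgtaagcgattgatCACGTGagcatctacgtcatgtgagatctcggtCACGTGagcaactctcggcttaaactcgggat
Sgsh: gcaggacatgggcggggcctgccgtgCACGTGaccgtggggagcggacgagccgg
The 11 members with the 7 bases had a median log2 fold change of -0.04, between -0.29 and 0.17. The 22 without them had a median of -0.01, between -0.12 and 0.47. These ranges overlapped, and a match describes the letters in the window and not the binding of a factor.

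**Figure D3:**
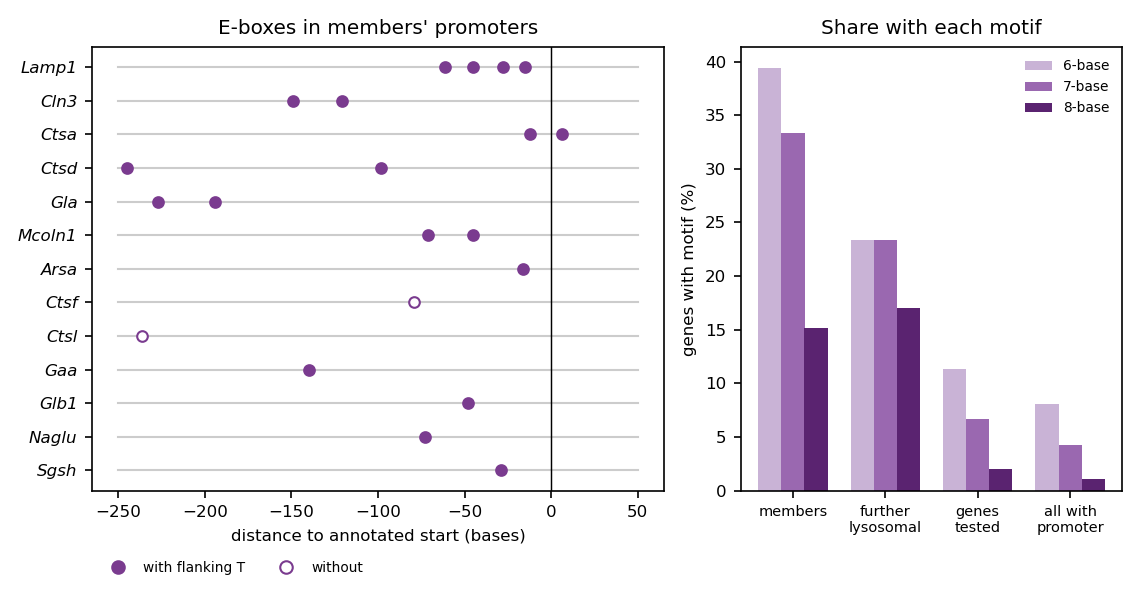
Left, position of each E-box in the promoters of the 13 members that have one (bases from the annotated start; filled points are part of the 7-base motif); right, percent of genes with a promoter that hold the 6-, 7- and 8-base motif in each set. Lamp1 has 4 E-boxes. The 6-base motif is present in 39.4% of members and 23.4% of further lysosomal genes. It is present in 11.3% of genes tested and 8.09% of all genes in the promoter table.

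Among the 6 membrane proteins no gene passed the study limits, and their log2 fold changes lay between -0.03 and 0.04. Lamp1 was measured at 95.4, 92.1 and 98.4 FPKM in control libraries 1, 2 and 3 and at 97.7, 95.1 and 90.5 FPKM in EFV libraries 1, 2 and 3. The highest and the lowest Lamp1 values stood in control library 3 and EFV library 3, and the groups overlapped (log2 fold change -0.03, SE 0.05). Lamp2, the partner of Lamp1 and the receptor of chaperone-mediated autophagy, had the smallest p of this group. Its level was 23.3, 21.4 and 21.5 FPKM in control and 23.5, 23.3 and 22.3 FPKM in EFV, in the order of the library numbers. Control library 1 lay among the EFV values, and the log2 fold change of Lamp2 was 0.04 (SE 0.05). The lysosomal calcium channel Mcoln1 had a log2 fold change of 0.00, as did Scarb2, the carrier of glucocerebrosidase. Laptm4a and Cln3, the gene of juvenile Batten disease, were the others, at 51.7 and 8.46 FPKM on average.

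The 8 proteases held 3 of the 5 most abundant members, Ctsd, Ctsb and Ctsf, and none passed the study limits. Ctsd, the main aspartic protease of lysosomes, was measured at 153, 139 and 155 FPKM in control libraries 1, 2 and 3 and at 141, 149 and 148 FPKM in EFV libraries 1, 2 and 3. All EFV values of Ctsd fell between the lowest and the highest control value (log2 fold change -0.04, SE 0.05). The cysteine protease Ctsb stood at 89.4, 85.7 and 92.3 FPKM in control and 88.7, 89.5 and 84.6 FPKM in EFV, with EFV library 3 below and the others among the controls (log2 fold change -0.04, SE 0.05). Ctsf, another cysteine protease, gave 68.1, 66.1 and 73.0 FPKM in control and 71.7, 72.9 and 73.2 FPKM in EFV. Its EFV libraries lay close together near the highest control library, and its log2 fold change was 0.06 (SE 0.05).

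Ctsz, a carboxypeptidase of the cysteine class, had the smallest p among the proteases. It was measured at 23.6, 20.4 and 21.3 FPKM in control libraries 1, 2 and 3 and at 19.5, 19.9 and 21.5 FPKM in EFV libraries 1, 2 and 3. Control library 1 was the highest and EFV library 3 lay among the controls, with a log2 fold change of -0.12 (SE 0.07, unadjusted p = 0.119 by edgeR). This value was -0.06 without control library 1 and -0.16 without control library 2, neither past the study limits. The other members of the group were Ctsa, a carboxypeptidase that also protects neuraminidase and beta-galactosidase, the cysteine proteases Ctsh and Ctsl, and the tripeptidyl peptidase Tpp1. Their log2 fold changes lay between -0.05 and 0.05. Ctsl, chosen here after its values were seen, had its lowest and highest levels in control libraries 2 and 3, at 18.5 and 25.6 FPKM. Without control library 3 the log2 fold change of Ctsl was 0.14 and passed the study limits, against 0.00 with all libraries. The sign was the opposite without control library 2, at -0.09, and without control library 1, at -0.04, neither past the limits.

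The 10 genes of sphingolipid, thioester and neutral lipid breakdown contained the lower gene. Gla removes the terminal galactose of globosides, and its human deficiency is Fabry disease. Its level was 7.41, 6.86 and 7.54 FPKM in control libraries 1, 2 and 3 and 6.58, 6.50 and 6.62 FPKM in EFV libraries 1, 2 and 3. Every EFV library lay below every control library, and the EFV values were tightly grouped, with means of 7.27 ± 0.361 FPKM in control and 6.57 ± 0.0611 FPKM in EFV (SD, n = 3). The log2 fold change of Gla was -0.16 (SE 0.06, unadjusted p = 0.0275 and BH-adjusted p = 0.999 by edgeR). The call was lost with DESeq2, with limma on FPKM and with scaling by total counts only, where the log2 fold changes lay between -0.16 and -0.13. It was also lost without control library 1 or 3 or EFV library 1 or 2, at values between -0.17 and -0.14.

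Psap, the precursor of the saposins that present sphingolipids to their hydrolases, was the most abundant member. It was measured at 290.3, 277 and 282 FPKM in control libraries 1, 2 and 3 and at 276, 285 and 294 FPKM in EFV libraries 1, 2 and 3. Both the lowest and the highest value came from EFV libraries, and the log2 fold change was -0.01 (SE 0.04). The interval of Psap, from -0.10 to 0.08, was among the narrow ones. Hexa (a subunit of hexosaminidase A), Glb1 (beta-galactosidase), Galc (galactosylceramidase), Arsa (the sulfatide sulfatase), Asah1 (acid ceramidase), Smpd1 (acid sphingomyelinase), Lipa (acid lipase) and Ppt1 (the thioesterase that removes palmitate from proteins) made up the rest. None of these 8 passed the study limits, with log2 fold changes between -0.11 for Glb1 and 0.17 for Arsa. Without control library 3 the value of Arsa was 0.24 and passed them, and without control library 2 it was 0.11 and did not. The value of Glb1 was -0.28 without control library 2 and -0.01 without control library 3, neither past the limits.

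No gene passed the study limits among the 6 glycosaminoglycan hydrolases, which were mostly expressed at low levels, with a median of 4.58 FPKM. Sgsh had the smallest p of the group. It was measured at 3.22, 3.10 and 3.17 FPKM in control libraries 1, 2 and 3 and at 3.35, 2.49 and 2.03 FPKM in EFV libraries 1, 2 and 3. EFV library 1 lay above all controls and the other EFV libraries below them, so the groups overlapped and the EFV spread was the larger, with an SD of 0.670 against 0.0603 FPKM. The log2 fold change of Sgsh was -0.29 (SE 0.16, unadjusted p = 0.104 by edgeR). Without EFV library 1 it was -0.50, past the study limits, and without EFV library 3 it was -0.13, not past them. In the GENCODE annotation of the same build 21.6% of the exon bases of Sgsh were shared with Card14 on the opposite strand, which had a mean of 0.172 FPKM.

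The remaining members of this group were Gusb (beta-glucuronidase), Arsb (the dermatan sulfatase), Naglu (N-acetylglucosaminidase), Idua (iduronidase) and Ids (iduronate sulfatase). Ids was the most abundant of them at 31.7 FPKM. Its log2 fold change was -0.01 (SE 0.04). The log2 fold changes of the other 4 lay between -0.09 for Arsb and 0.19 for Gusb.

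Shared exon bases were not particular to Sgsh. They were annotated for 16 of the 36 members, and for 8 of them a single partner held over 10% of the exon bases. Ctsd shared 34.4% with Gm49369 on the same strand, Arsb 32.3% with Gm26527, Ctsl 26.8% with the antisense gene Gm47123 and Arsa 18.8% with C230037L18Rik, and none of these partners was listed in the files. Ctsb shared 12.8% with Fdft1, which stood at 26.6 FPKM on the opposite strand. Lamp1 shared 9.31% with Grtp1, also opposite, which stood at 63.9 FPKM. Strand use in the counting was not stated, so reads from the shared bases of such pairs cannot be told apart, and the values of these members carry that uncertainty.

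The 5 glycoprotein and glycogen hydrolases contained the higher gene. Manba encodes beta-mannosidase, which removes the last mannose from N-linked glycans. Its level was 0.74, 0.80 and 0.96 FPKM in control libraries 1, 2 and 3 and 1.03, 0.99 and 1.48 FPKM in EFV libraries 1, 2 and 3. Every EFV library lay above every control library, but EFV libraries 1 and 2 stood close to control library 3 and EFV library 3 stood apart, with means of 0.833 ± 0.114 and 1.17 ± 0.272 FPKM (SD, n = 3). These levels rested on 66, 68 and 85 counts in control and 92, 88 and 130 counts in EFV, the fewest of any member. The log2 fold change of Manba was 0.47 (SE 0.20, unadjusted p = 0.0439 and BH-adjusted p = 0.999 by edgeR). It was 0.27 without EFV library 3, 0.39 without control library 1 and 0.45 without control library 2, past the study limits in none of these. With DESeq2 it was 0.47, and with limma on log2(FPKM + 0.1) it was 0.43, again not past the limits. A minimum of 100 counts left Manba untested. Neither Manba nor Gla shared exon bases with another annotated gene.

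Neu1 (a sialidase), Man2b1 (alpha-mannosidase), Fuca1 (alpha-fucosidase) and Gaa (acid alpha-glucosidase, which degrades glycogen) were the others of this group. Their log2 fold changes lay between -0.09 and 0.02, and none passed the study limits. Grn, the precursor of the granulins and a binding partner of prosaposin, was the single member outside these roles. It was measured at 14.6, 15.4 and 15.8 FPKM in control libraries 1, 2 and 3 and at 14.7, 14.4 and 16.4 FPKM in EFV libraries 1, 2 and 3. The EFV values of Grn spanned the control values, and its log2 fold change was -0.03 (SE 0.07).

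In TMM-scaled CPM, the unit in which the counts were compared, the groups did not overlap for 6 members (16.7%), 3 higher and 3 lower in EFV. The same held for 8.14% of all genes tested. In FPKM it held for 3 members (8.33%), Gla, Manba and Asah1, against 7.67% of all genes tested. In CPM scaled by total counts only it held for 4 members (11.1%), against 7.94% of all genes tested. The scales differ by the TMM factors, which FPKM lack, and by the transcript length. Without the TMM factors the groups of Hexa and Gaa overlapped, and those of Gusb did so only in FPKM. Hexa, Gaa and Gusb, which differed between the scales, were chosen for description after their values were seen. Hexa had 42.8, 40.9 and 40.7 CPM in control libraries 1, 2 and 3 and 40.0, 40.3 and 40.5 CPM in EFV libraries 1, 2 and 3. The gap between the groups of Hexa was thus smaller than the spread within them, and its log2 fold change was -0.04 (SE 0.05). For Gaa the nearest values were 147.2 CPM in control library 3 and 146.5 CPM in EFV library 3 (log2 fold change -0.07, SE 0.04). Asah1 had 53.7, 52.7 and 54.3 CPM in control and 54.3, 55.8 and 56.3 CPM in EFV, with the top control and the bottom EFV library nearly equal (log2 fold change 0.05, SE 0.04).

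**Figure D4:**
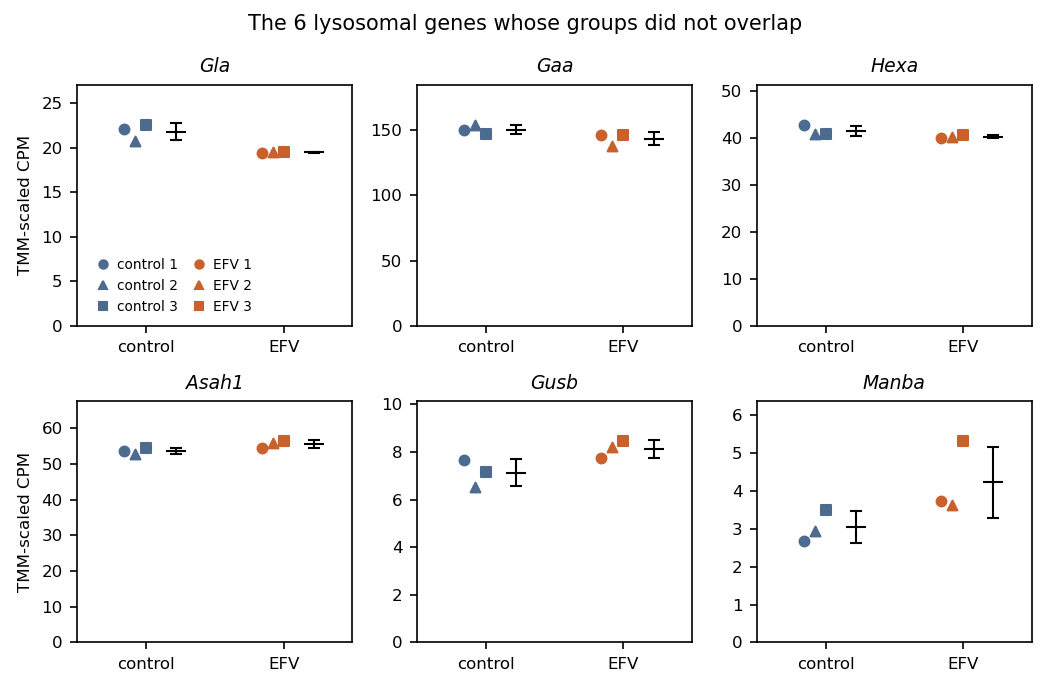
TMM-scaled CPM of the 6 lysosomal genes whose EFV and control libraries did not overlap, with 1 symbol per library and the mean and SD of each group (n = 3) at its right; axes start at 0. Gla, Gaa and Hexa are lower and Asah1, Gusb and Manba higher in EFV, and for most of them the gap between the groups is small beside the level.

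The transcript length, which RSEM averages over isoforms by their abundance, was the same in all libraries for Hexa. It did not overlap between the groups for 3 members, longer in EFV for Gusb and Galc (range 3.00%) and shorter in EFV for Gaa (range 0.645%). These were 8.33% of the members, against 4.70% of all genes tested, and all 3 were among the 15 members with several transcripts, against 8.90% of all such genes tested. Gusb had 7.67, 6.54 and 7.17 CPM in control libraries 1, 2 and 3 and 7.73, 8.22 and 8.46 CPM in EFV libraries 1, 2 and 3. Its length was 2367, 2490 and 2203 bases in control and 2794, 2552 and 2594 bases in EFV, a range of 26.8%. All EFV lengths were greater than all control lengths, and after division by length the groups overlapped, at 3.32, 2.64 and 3.33 FPKM in control and 2.85, 3.28 and 3.37 FPKM in EFV. The files gave 6 transcripts for Gusb, and its total rested on 151 to 207 counts per library. The other 21 members had 1 transcript in the files. The length of 2 members, Gusb and Mcoln1 (7.26%), varied by over 5% between libraries. Lamp2, with 3 transcripts in the files, varied by 4.18% with overlapping groups.

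The libraries differed from each other in ways that did not follow the groups. Control library 2 and EFV library 1 each had the lowest TMM-scaled CPM for 11 of the 36 members (30.6%), against 18.0% and 17.0% of all genes tested. Control library 3 had the highest TMM-scaled CPM for 11 members (30.6%), against 16.3% of all genes. EFV library 3 had the highest for 10 (27.8%), against 19.0%. On this scale each group thus held 1 library in which many lysosomal genes were low and 1 in which many were high. These tallies depended on the scaling. With total counts only, EFV library 1 was the lowest for fewer members and EFV library 3 the highest for more. Hexa, for example, was then lowest in EFV library 2, and Psap highest in EFV library 3. The median deviation of the members from their own means was nevertheless small, between -0.02 and 0.03 on the log2 scale.

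Markers of the RPE, which was part of every pool, and of the lens, which can come along with the retina, also varied by library. The sum of the 8 RPE markers was 58.0, 29.9 and 55.7 FPKM in control libraries 1 to 3, and in EFV libraries 1 to 3 it was 52.3, 65.0 and 66.6 FPKM. All 8 had a log2 fold change above 0, 3 were past the study limits and higher, the most abundant was Ttr at 28.3 FPKM, and none was at 0. Control library 2 was thus the lowest in RPE markers. EFV library 1 and control library 3 had similar sums. In TMM-scaled CPM 11 members were at their lowest in EFV library 1 and 11 at their highest in control library 3. The tally of EFV library 1 was smaller with total counts only. EFV library 3 had the highest RPE sum and the highest median deviation of the members (0.03). The 6 lens markers summed to 807 FPKM in control library 3 and to between 8.63 and 34.0 FPKM in the other libraries, led by Cryba1 at 398 FPKM in control library 3, and all 6 were past the study limits as lower in EFV. Control library 3 was also the one in which Lamp1, Ctsd, Ctsb, Ctsl and Gla had their highest FPKM. EFV library 3, with 10 members at their highest TMM-scaled CPM, had 34.0 FPKM of lens markers, the highest sum after control library 3. The part of RPE or lens RNA in the lysosomal values was not tested.

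**Figure D5:**
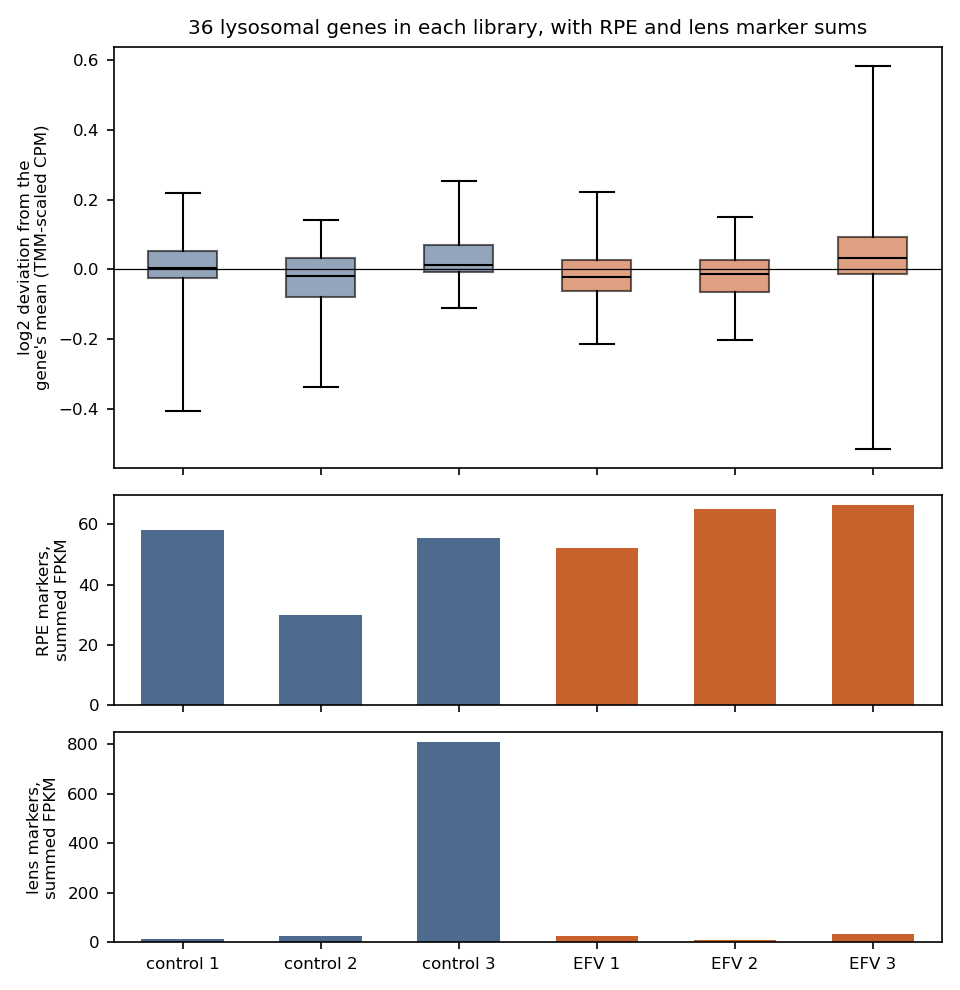
Top, log2 deviation of the 36 lysosomal genes from their own mean in each library (box, quartiles and median; whiskers, lowest and highest gene); middle and bottom, summed FPKM of 8 RPE and 6 lens markers. RPE markers are lowest in control library 2 (29.9 FPKM) and lens markers highest in control library 3 (807 FPKM).

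Microglia and macrophages are rich in lysosomes, and their markers were low in both groups. The sum of the 10 markers was 22.9 ± 1.21 FPKM in control and 21.8 ± 0.718 FPKM in EFV (SD, n = 3), and it overlapped between the groups. C1qa led the list at 4.41 FPKM, Aif1 had too few counts to be tested, and none of the 9 tested passed the study limits. The 6 rod markers, the 6 Muller glia markers led by Glul and the 6 endothelial markers led by Kdr likewise had none past the limits. Among oligodendrocyte markers Mbp, the most abundant at 9.68 FPKM, was higher at the study limits (log2 fold change 0.20). Mog, Mobp and Mag were at or near 0 and untested.

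The other genes of the lysosomal system followed the same picture. Of 65 further genes 63 were tested, 0 passed the study limits by edgeR in either direction and 0 had an unadjusted p of 0.05 or less, with a median log2 fold change of 0.01. At the same limits DESeq2 gave 0 of them, against 1.73% of all genes tested. Limma on log2(FPKM + 0.1) gave 2 (3.17%) against 3.15% of all genes, and the Poisson model gave 8 (12.7%) against 14.8%. The 15 subunits of the V-ATPase, the proton pump that acidifies the lysosome, had log2 fold changes between -0.15 and 0.05. Their most abundant gene, Atp6v0c, ranged from 177 to 329 FPKM in control and from 139 to 271 FPKM in EFV, so its log2 fold change of -0.15 (SE 0.27) was well inside its spread. Among 7 genes of enzyme delivery Gnptg, a subunit of the phosphotransferase that makes the mannose 6-phosphate tag, was the most abundant at 47.3 FPKM (log2 fold change 0.00). The smallest p among all 63 belonged to Sumf1, which activates the sulfatases, with a log2 fold change of 0.19 (unadjusted p = 0.0668 by edgeR); it was chosen after its values were seen.

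Transcription factors of lysosomal genes were 5, of which Tfec had too few counts. Tfe3 was the most abundant at 16.6 FPKM and had a log2 fold change of -0.09 (SE 0.06), and that of Tfeb was 0.07 (SE 0.08). Mitf and the repressor Zkscan3 both had 0.01. Lgmn led the 22 further lumenal proteins at 94.0 FPKM (log2 fold change -0.06), and Acp5 of this list was untested. Laptm4b led the 16 further membrane proteins at 289 FPKM (log2 fold change 0.03), a level close to that of Psap. As a wider background, 398 genes carried a lysosomal entry in the files and 360 of them were tested, with a median log2 fold change of 0.00. At the study limits 7 of them (1.94%) were higher and 6 (1.67%) lower, near the shares of 1.47% and 1.54% of all genes tested.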

How the data were processed

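Retinal RNA was measured in 6 libraries, 3 per group. Per the submitters' processing notes and the study's methods, the authors aligned filtered reads to mm10 with Bowtie2 2.2.5 (HISAT2 2.0.4 is also named) and made the expected counts with RSEM 1.2.12, unnormalized. The deposited FPKM are those counts divided by transcript length and library total, and the deposited length column is the abundance-weighted transcript length. A gene missing from a library was taken as 0. Strandedness and annotation release are not given in the sources used here.

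Expected counts were rounded, scaled by TMM and tested in R 4.3.3 with glmQLFit and glmQLFTest of edgeR 4.0.16, two-sided, keeping a gene that had 10 counts or more in 3 or more libraries, with BH adjustment over all genes tested; the method was tested on simulated data. Confidence intervals (95%) came from the log2 fold change and its SE. The study states that its threshold for differential expression rested on the Poisson distribution, so a Poisson model was an alternative. As fitted here, that model leaves out the spread between pools. Others were RLE, upper quartile and total-count scaling, no count filter, a minimum of 100 counts, Entrez genes only, DESeq2 1.42.0, limma 3.58.1 on log2 FPKM with pseudocounts of 0.1 and 1, a replicate block and leaving out each library. The p-values of edgeR, DESeq2 and limma take the spread between pools into account, and those of the Poisson model do not.

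The members and the gene lists were chosen with earlier results of these data known. All members were named; all library values were given for those past the study limits, the 5 most abundant and the member with the smallest p in each role. Of the further lysosomal lists, genes past the limits and the most abundant were named, of marker lists the most abundant (some genes are not reported here), and sequences of at most 6 members so described. All other genes given with values were chosen after their values were seen. Gene positions and promoters are RefSeq GRCm38.p6, and exon overlaps are from GENCODE of the same build.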

Additional observations from a re-analysis of the deposited data

How the results depend on the processing

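The numbers of members past the study limits, 1 lower and 1 higher, were the same with RLE or upper quartile scaling, without a count filter and with Entrez genes only. Total-count scaling gave 0 lower and 1 higher, and the minimum of 100 counts 1 lower and 0 higher with Manba untested. DESeq2 gave 0 and 0, limma on log2(FPKM + 0.1) 0 and 0, and limma on log2(FPKM + 1) 0 lower and 1 higher. The Poisson model gave 3 and 3, against 14.8% of all genes tested in either direction. That share was 2.88% with total-count scaling, 2.70% with the minimum of 100 counts and 1.73% with DESeq2. It was 3.15% and 3.18% with limma at pseudocounts of 0.1 and 1. The Poisson model gave 9 of the 36 members with a BH-adjusted p of 0.05 or less, against 13.1% of all genes tested, and every other alternative 0 members. Members with non-overlapping groups numbered 4 (11.1%) with total-count scaling, against 7.94% of all genes tested, and 3 in the FPKM used by both limma settings, against 6. Genes past the study limits were 467, against 269 with DESeq2 and 2305 with the Poisson model; limma on log2(FPKM + 0.1) gave 297 higher and 192 lower, limma on log2(FPKM + 1) 297 and 197. Further lysosomal genes past the limits numbered 2 with either limma setting (Sumf1 among them, named after its values were seen) and 8 with the Poisson model, against 0. The cause of these differences was not tested. The Poisson model has no term for the spread between pools.

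Leaving out 1 library at a time gave 0 to 1 lower members, 0 to 3 higher members and 8 to 10 members with non-overlapping groups. It gave 389 to 576 genes past the study limits (2.50% to 3.71% of all tested) and 0 to 2 further lysosomal genes past them. Fewer libraries make non-overlap easier to reach: the members' share was then 22.2% to 27.8%, and that of all genes tested 15.9% to 19.0%. Gla kept its call without control library 2 or EFV library 3 and lost it without control library 1 (-0.16), control library 3 (-0.14), EFV library 1 (-0.16) or EFV library 2 (-0.17). Manba lost its call without control library 1 (0.39), control library 2 (0.45) or EFV library 3 (0.27). Ctsl (0.14) and Arsa (0.24) passed without control library 3, and Sgsh (-0.50) without EFV library 1. Without control library 2 Ctsl was -0.09 and Arsa 0.11, and without EFV library 3 Sgsh was -0.13, none past the limits. Gm2a (-0.18) passed without control library 1, Sumf1 (0.25) without control library 2, Pla2g15 (0.22) without EFV library 2, and Hyal1 (0.25) and Atp6v1g1 (-0.12) without EFV library 3. Gla and Manba kept their signs in every alternative that tested them.

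With the replicate number as a block there was 1 lower and 1 higher member, 514 genes past the study limits and a median member log2 fold change of -0.01. Same-numbered libraries correlated at 0.124, 0.0729 and 0.102 in their deviations from the group means. Differently numbered ones correlated between -0.0976 and -0.00917, so every library correlated best with its own number. The labels give a group and a number and name no pairs, and the main fit did not treat the libraries as paired. At 66 to 130 counts Manba is limited by counting error as well as by the spread between pools.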
